A study of Mus musculus with 6 samples.

Results

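Transcripts of 9 genes of insulin-like growth factor (IGF) signalling were followed in sorted lung endothelial cells of mice aged 18 and 8 months. They were taken by name from a table of 24520 genes: the binding proteins Igfbp2 to Igfbp7, the ligand Igf1, and the receptors Igf1r and Insr. All 6 libraries were used, 3 from wild-type mice aged 18 months (labelled aged) and 3 from wild-type mice aged 8 months (labelled mAdu), with no other treatment named. Cells were sorted by flow cytometry from lung, and it is not stated in the labels if libraries of the same age came from separate mice. The p-values therefore measure the spread between libraries, which may be technical. The libraries of mice aged 18 months are called older and those of mice aged 8 months younger.

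IGF1 and IGF2 signal through the IGF1 receptor, a tyrosine kinase, and through hybrids of it with the insulin receptor. Binding proteins hold the ligands in blood and matrix, and can either keep them from the receptor or deliver them when proteases cut the carrier. Endothelial cells secrete several binding proteins and carry both receptors, while the ligand IGF1 comes largely from liver, macrophages and fibroblasts.

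Of the 9 members 7 were abundant enough to test, and 0 of these passed the test between the ages. The ages did not overlap in 3 of the 7, 1 higher and 2 lower. Of all tested genes 4.48% did not overlap as higher and 14.2% as lower. Igfbp5 and Igfbp7 were lower in each older library than in each younger library, and Igf1r was higher in each. The stretches of 250 bases that precede the start of these 3 genes are shown because the series concerns DNA methylation, which falls on the CG dinucleotides (CpG), printed in capitals. They are from RefSeq on GRCm38.p6, 5′ to 3′ on the strand of the gene: chr5:77408046-77408295 (minus strand) for Igfbp7, chr1:72874866-72875115 (minus strand) for Igfbp5 and chr7:67952007-67952256 (plus strand) for Igf1r.
Igfbp7: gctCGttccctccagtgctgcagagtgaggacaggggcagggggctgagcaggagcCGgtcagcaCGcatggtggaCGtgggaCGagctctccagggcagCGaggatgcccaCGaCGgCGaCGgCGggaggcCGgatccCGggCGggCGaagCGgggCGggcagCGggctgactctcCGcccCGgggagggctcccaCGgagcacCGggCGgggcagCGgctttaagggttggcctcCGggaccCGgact
Igfbp5: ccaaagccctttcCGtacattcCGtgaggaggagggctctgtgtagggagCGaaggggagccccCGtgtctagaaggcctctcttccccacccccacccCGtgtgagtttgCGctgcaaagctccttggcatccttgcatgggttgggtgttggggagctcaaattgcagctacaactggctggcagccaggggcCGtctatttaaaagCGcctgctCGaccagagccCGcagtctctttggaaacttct
Igf1r: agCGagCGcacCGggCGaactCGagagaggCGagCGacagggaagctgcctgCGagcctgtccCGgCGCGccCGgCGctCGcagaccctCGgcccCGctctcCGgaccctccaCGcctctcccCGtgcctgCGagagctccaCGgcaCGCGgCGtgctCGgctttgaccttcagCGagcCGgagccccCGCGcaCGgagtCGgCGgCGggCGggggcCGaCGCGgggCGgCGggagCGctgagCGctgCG

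The Igf1r stretch held 42 CpG, more than 99.1% of 32851 such windows of mouse genes. The Igfbp7 stretch held 26, more than 90.4% of windows, and the Igfbp5 stretch held 10, more than 62.2%. The GC box letters GGGCGG, searched on both strands and themselves holding a CpG, occurred 4 times before Igfbp7 (from 110, 96, 74 and 44 bases before the start) and 2 times before Igf1r (from 43 and 26 bases). They were not found before Igfbp5, and 32.7% of all windows held them. Neither TATAAA (12.4% of windows), CCAAT (33.8%) nor the FOXO motif GTAAACA (3.17%) was found in these 3 stretches. The Igf1r start in RefSeq lies 570 bases from that of GENCODE, and those of Igfbp7 and Igfbp5 lie 4 and 19 bases apart. No methylation or binding was measured in these files, so the sequences describe the genes and not their regulation. RefSeq promoter entries matched 8 of the 9 members by symbol, with Insr not among them.

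The members spanned a wide range of levels. The unit, TPM, is a transcript's share of the library scaled by its length. Levels of genes can be set side by side in it, but it keeps no read depth, which is unknown here. Over the 6 libraries Igfbp7 was the most abundant, between 238 and 407 TPM, followed by Igfbp4 between 41.1 and 67.5 TPM. Igf1r lay between 12.9 and 17.4 TPM, Igfbp5 between 2.59 and 15.5 TPM and Insr between 3.82 and 7.81 TPM. Below these came Igfbp3 at 1.25 to 3.11 TPM, Igfbp6 at 0.692 to 1.78 TPM, Igf1 at 0.426 to 0.920 TPM and Igfbp2 at 0.0812 to 0.853 TPM. Igfbp7 stood above Igfbp4, Igfbp4 above Igf1r and Insr above Igfbp3 in 6 of 6 libraries with ranges that did not overlap. The ranges of Igf1r and Igfbp5, of Igfbp5 and Insr, and of each pair of neighbours below Igfbp3 overlapped.

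**Figure D1:**
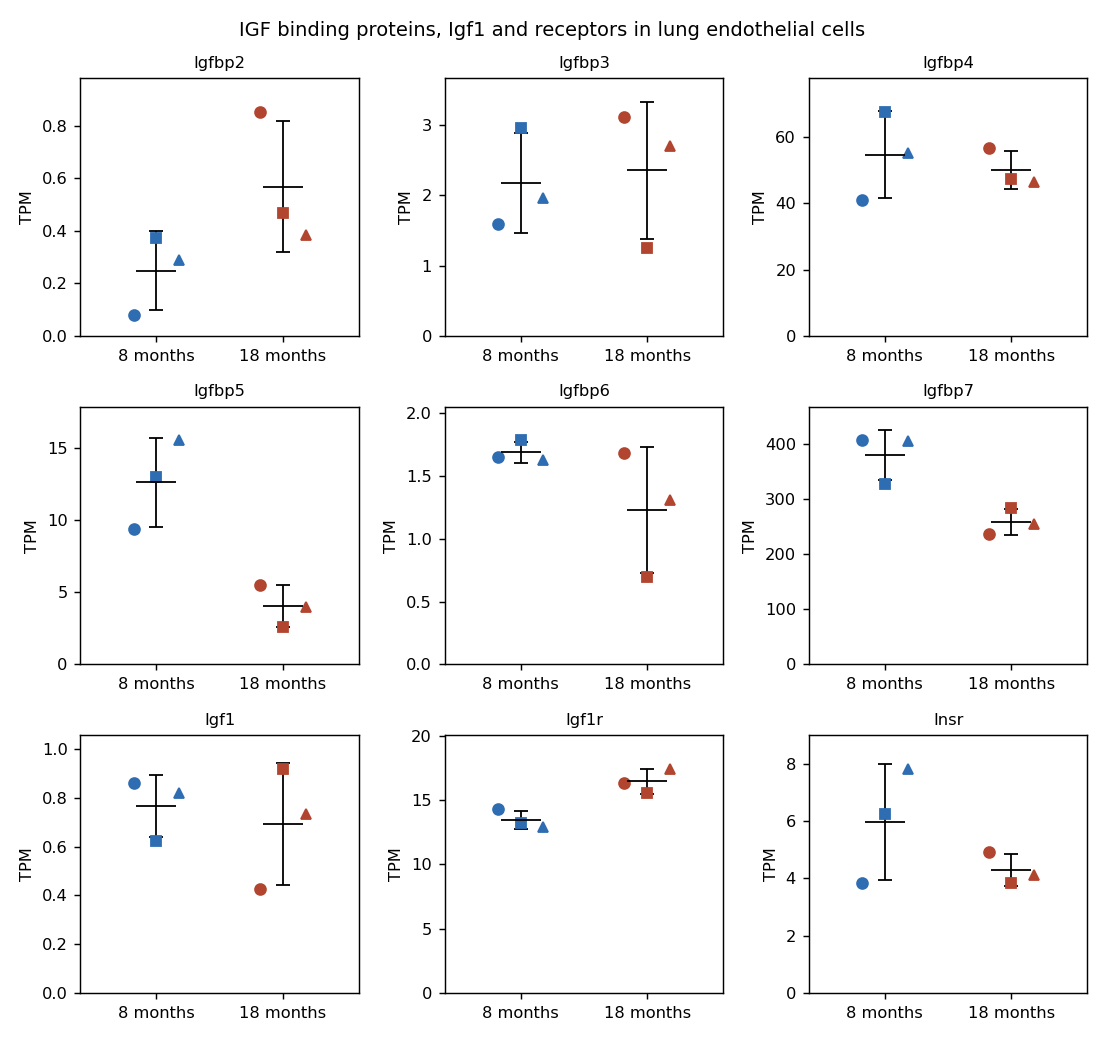
TPM of each of the 9 members (vertical axes from 0, a scale for each gene) in the 3 libraries aged 8 months (blue) and the 3 aged 18 months (red); circles, squares and triangles are libraries 1, 2 and 3 of an age, and black bars are the mean and SD. The ages do not overlap for Igfbp5, Igfbp7 and Igf1r, nor for Igfbp2, which stays under 1 TPM in every library.

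The comparison of 18 with 8 months asks what differs with age in the transcriptome of these cells. Values were tested as log2(TPM + 1) with limma over 12748 genes, those whose mean over the libraries reached 1 TPM, and p-values were adjusted over all of them by the Benjamini-Hochberg method. Of the 9 members 7 had such a mean, while Igfbp2 and Igf1 did not and are given as values. By limma 0 of the 7 passed at an adjusted p of 0.05, where 0.00784% of all tested genes passed as higher and 0.0157% as lower. At an unadjusted p under 0.05, Igf1r was higher, where 3.45% of all tested genes were, and Igfbp5 and Igfbp7 were lower, where 9.99% were. That is 1 and 2 of the 7. The same 3 genes were those whose ages did not overlap, against 4.48% of all tested genes in the higher and 14.2% in the lower direction. The split of all genes depended on the scaling, with 440 higher and 1274 lower at the unadjusted threshold as deposited, 756 and 881 with median-of-ratios scaling, 751 and 979 with quantile normalization, and 773 and 722 once GC content and transcript length were corrected for. The median log2 difference of the 7 was -0.30, against -0.079 for all tested genes. It was -0.037 when corrected for GC content and length, where that of all genes was 0.011, and -0.11 and -0.17 without the second older and the third younger library.

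Endothelial markers were abundant in all libraries, and their sum separated the ages. The 12 markers summed to 12740 to 13730 TPM in the older libraries and 14070 to 15530 TPM in the younger, with 11 of 12 log2 differences below 0, as were 66.2% of all tested genes. By limma 0 of the 12 passed, and at the unadjusted threshold 4 were lower, where 9.99% of all tested genes were. The ages did not overlap in 5, all lower, where the share of all tested genes was 14.2%. Pecam1 was the one above 0, at a log2 difference of 0.003, while Cdh5 was at -0.28, the receptor gene Kdr at -0.54 and Eng, a co-receptor for TGF-beta ligands, at -0.79. This sum was thus lower in each older library, as Igfbp5 and Igfbp7 were, and its part in their differences was not tested. RNA of other lung cells was also present, with the alveolar type 2 cell marker Sftpc between 3945 and 11881 TPM and the airway secretory cell marker Scgb1a1 between 5224 and 12297 TPM. The third younger library had the highest Sftpc and the highest summed alveolar type 2, macrophage and lymphocyte markers. In bulk RNA, fewer cells of a type and less RNA per cell cannot be told apart. Between libraries log2(TPM + 1) correlated across the 12748 genes at 0.974 to 0.982 within an age and 0.966 to 0.977 across ages. These are correlations across genes, which are not independent replicates.

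Among the binding proteins, Igfbp5 had the largest log2 difference. IGFBP5 binds IGFs with high affinity and also attaches to the extracellular matrix. The gene lies on chromosome 1 (72857932 to 72874884, GRCm38), 5457 bases from its neighbour Igfbp2 on the opposite strand. Igfbp5 was at 5.49, 2.59 and 3.98 TPM in the older libraries and at 9.36, 13.0 and 15.5 TPM in the younger libraries. Each older library lay below each younger library, and the first younger library was the lowest of its age. The mean was 4.02 ± 1.45 TPM (SD, n = 3) in the older libraries and 12.6 ± 3.09 TPM in the younger, 3.14-fold lower at the later age. The log2 difference was -1.46 with an SE of 0.26 and a 95% interval from -2.06 to -0.85 (limma unadjusted p = 0.00056, adjusted p = 0.12), which placed it 57th by p among the 12748 genes. It passed with library weights (limma adjusted p = 0.037) and with none of the other 18 alternatives. Over all 19 the log2 difference lay between -1.66 and -1.23. Of the 31-base sequences in its transcripts 0 occurred in those of other genes.

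Markers of several other cells were lower at 18 months beside Igfbp5. The 11 smooth muscle and pericyte markers summed to 26.1 to 33.7 TPM in the older libraries and 44.8 to 72.7 TPM in the younger, and the 12 fibroblast markers to 22.9 to 33.7 and 38.5 to 58.4 TPM. Both sums separated the ages, as Igfbp5 did. Within the younger libraries the third was highest in Igfbp5 and lowest in both sums. A large part of the fibroblast sum was Inmt, at 28.1, 20.3 and 14.6 TPM in the younger libraries, a gene whose ages overlapped. The fibroblast list was mixed, as Dcn was lowest in the first younger library and Col1a1 and Col3a1 in the third. Of the tested markers, 7 of 7 smooth muscle and pericyte genes and 8 of 8 fibroblast genes had a log2 difference below 0, against 66.2% of all tested genes, and 0 of either list was listed at 0 in all libraries. The fibroblast proteoglycan gene Dcn was at 4.19, 3.87 and 4.34 TPM against 7.17, 18.5 and 10.3 TPM, while the collagen genes Col1a1 and Col3a1 were at most 2.45 TPM in any library. The 10 venous markers summed to 481.5 to 606.8 TPM in the older libraries and to 603.9, 1221 and 991.2 TPM in the younger libraries, with the first library lowest as it was in Igfbp5. The 8 lymphatic markers summed to 602.3 to 759.4 against 917.2 to 1153 TPM. Most of this was Lyve1, at 575.4 to 718.5 against 844.2 to 1113 TPM, so the sum follows that 1 gene more than the list. Of that list the lymphatic chemokine gene Ccl21a was at 1.66, 1.66 and 1.39 TPM in the older libraries and 3.67, 21.9 and 17.8 TPM in the younger, while the lymphatic transcription factor gene Prox1 was at most 0.179 TPM in any library and listed at 0 in 1. The part of these cells in the Igfbp5 difference was not tested.

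Igfbp7, also called angiomodulin, encodes a secreted binding protein of low affinity for IGFs that is abundant in vessel walls. It lies on chromosome 5 (77349240 to 77408041, GRCm38). In the older libraries it was at 237.8, 283.8 and 254.5 TPM and in the younger libraries at 406.9, 327.6 and 406.5 TPM. The ages did not overlap, with the second library of each age the closest to the other age. The mean was 258.7 ± 23.3 TPM (SD, n = 3) in the older libraries and 380.3 ± 45.7 TPM in the younger, 1.47-fold lower. The log2 difference was -0.55 with an SE of 0.12 and a 95% interval from -0.83 to -0.27 (limma unadjusted p = 0.0019, adjusted p = 0.16). Corrected for GC content and length it was -0.33 (limma unadjusted p = 0.076, adjusted p = 0.48), and over the 19 alternatives its limma adjusted p lay between 0.054 and 0.59. The 3′ end of the gene shares 85 exonic bases with Polr2b on the opposite strand, and 4.57% of its 31-base sequences occur in Polr2b transcripts, so reads there cannot be assigned to 1 gene without strand. Polr2b lay at 57.7 ± 6.17 TPM in the older libraries and 58.6 ± 1.77 TPM in the younger.

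Aerocyte markers, which mark the large capillary cells of the alveolus, summed to 4309 to 4951 TPM in the older libraries and to 6745, 5366 and 7057 TPM in the younger libraries. The second younger library was the lowest of its age in this sum as in Igfbp7. Among the older libraries the orders differed, with the second lowest in this sum (4309 TPM) and highest in Igfbp7 (283.8 TPM). All 10 aerocyte markers had a log2 difference below 0, as had 66.2% of all tested genes. Of them 8 were lower without overlap, where 14.2% of all tested genes were. The general capillary sum went the other way, at 11920 to 13050 TPM in the older libraries and 10520 to 11450 TPM in the younger. Of its 10 markers 8 lay above 0, where 33.8% of all tested genes did, and Aplnr (-0.056) and Plvap (-0.79) below. In 2 the ages did not overlap, both higher, where 4.48% were. Tmem100, Hpgd and Gpihbp1, most of the sum, each overlapped. Whether the mix of capillary cells had a part in the Igfbp7 difference was not tested.

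**Figure D2:**
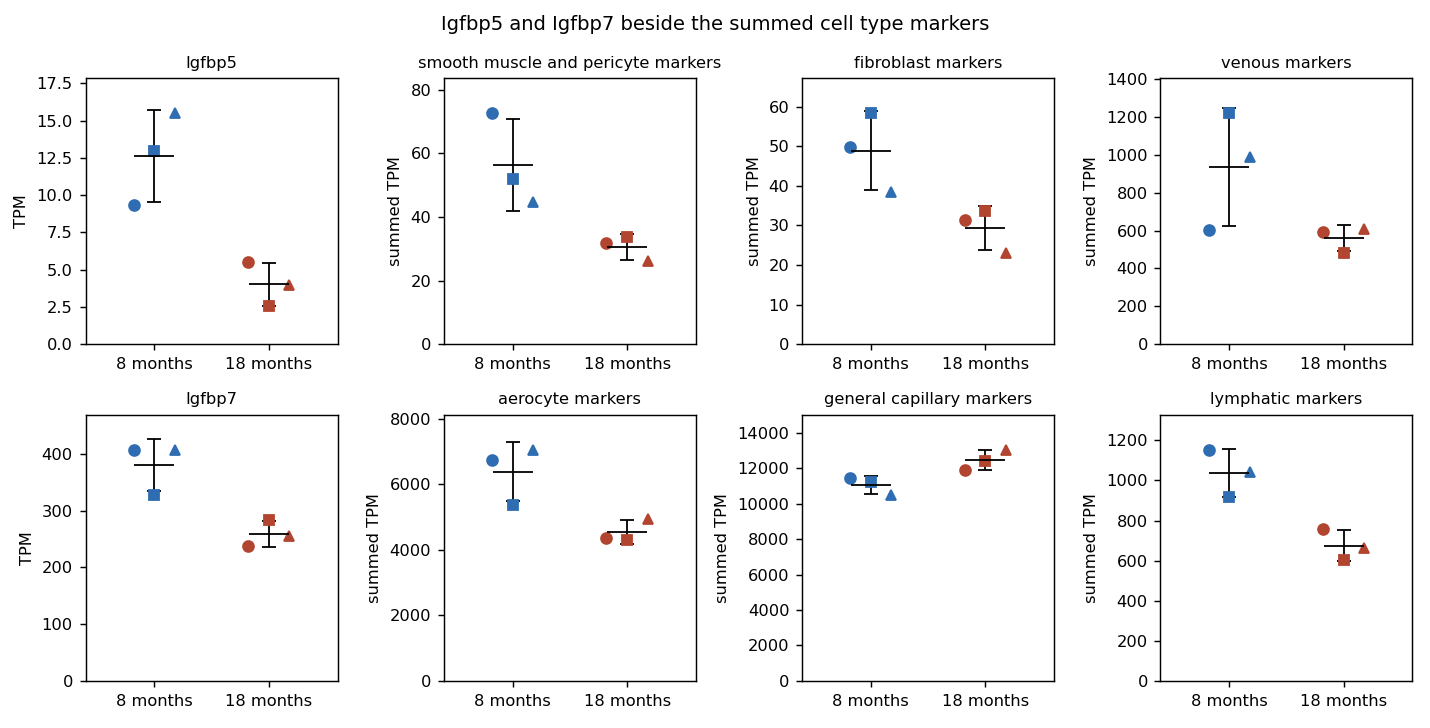
TPM of Igfbp5 and Igfbp7 (left) beside the summed TPM of 6 marker lists in the same libraries (vertical axes from 0), with 8 months in blue, 18 months in red, circles, squares and triangles for libraries 1, 2 and 3 and black bars for the mean and SD. Igfbp5, Igfbp7 and the smooth muscle, fibroblast, aerocyte and lymphatic sums are lower in each older library, the general capillary sum is higher in each, and the venous sums overlap. Most of the lymphatic sum is Lyve1.

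The other binding proteins overlapped between the ages or lay near the lower end of detection. Igfbp4, a carrier that the protease PAPP-A cuts to release IGF, was at 56.7, 47.2 and 46.4 TPM in the older libraries and 41.1, 67.5 and 55.3 TPM in the younger, so that the older values fell inside the younger range. Its log2 difference was -0.10, and the 95% interval ran from -0.52 to 0.32 (limma adjusted p = 0.86), and it turned positive when corrected for GC content and length (0.051) and without the second younger library (0.064). Igfbp3, the main carrier of IGFs in blood, was at 3.11, 1.25 and 2.70 TPM in the older libraries and 1.59, 2.96 and 1.97 TPM in the younger. The highest and the lowest library were both aged 18 months, and the log2 difference of 0.057 had a 95% interval from -0.59 to 0.71 (limma adjusted p = 0.96). Igfbp6, which prefers IGF2 over IGF1, was at 1.68, 0.692 and 1.31 TPM against 1.65, 1.78 and 1.62 TPM. Its log2 difference of -0.30 had a 95% interval from -0.81 to 0.22 (limma adjusted p = 0.62), and the second older library was the lowest of the 6. It was -0.11 without that library and -0.037 when corrected for GC content and length.

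Igfbp2, whose product also binds integrins, was below the mean of 1 TPM that the test required. It was at 0.853, 0.470 and 0.385 TPM in the older libraries and 0.0812, 0.374 and 0.288 TPM in the younger. The ages did not overlap, by a gap between 0.374 and 0.385 TPM, at levels where the unknown depth leaves the precision unknown. Alveolar type 1 cell markers, taken as epithelial, summed to 346.9 to 382.3 TPM in the older libraries and 415.7 to 493.3 TPM in the younger, the other way from Igfbp2. Most of this sum was Clic5, at 184.5 to 232.5 against 244.5 to 262.6 TPM, so it follows that 1 gene more than the list. Ager and Hopx of the list overlapped between the ages. The general capillary and arterial marker sums were higher in each older library, as Igfbp2 was. In each of these lists the ages did not overlap in 2 of 10 markers, where 4.48% of all tested genes were higher without overlap. The part of any of these cells in the Igfbp2 values was not tested.

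In sum, the binding protein transcripts Igfbp2 to Igfbp7 came to 316.9 ± 16.6 TPM (SD, n = 3) in the older libraries and 451.6 ± 34.9 TPM in the younger. Igfbp7 held 81.5 ± 3.39% of this sum at 18 months and 84.0 ± 4.54% at 8 months, a difference smaller than the spread between libraries. Igfbp4 held 15.9 ± 2.36% and 12.2 ± 3.76%. Igfbp5 held 1.80, 0.770 and 1.29% in the older libraries and 2.03, 3.14 and 3.22% in the younger libraries. With Igfbp7 left out of the sum, Igfbp5 held 8.10, 4.95 and 7.27% at 18 months and 17.4, 15.2 and 20.8% at 8 months, while Igfbp4 held 86.2 ± 3.67% and 76.4 ± 2.41%. Shares of a sum are not independent of each other, and no test was made on them.

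**Figure D3:**
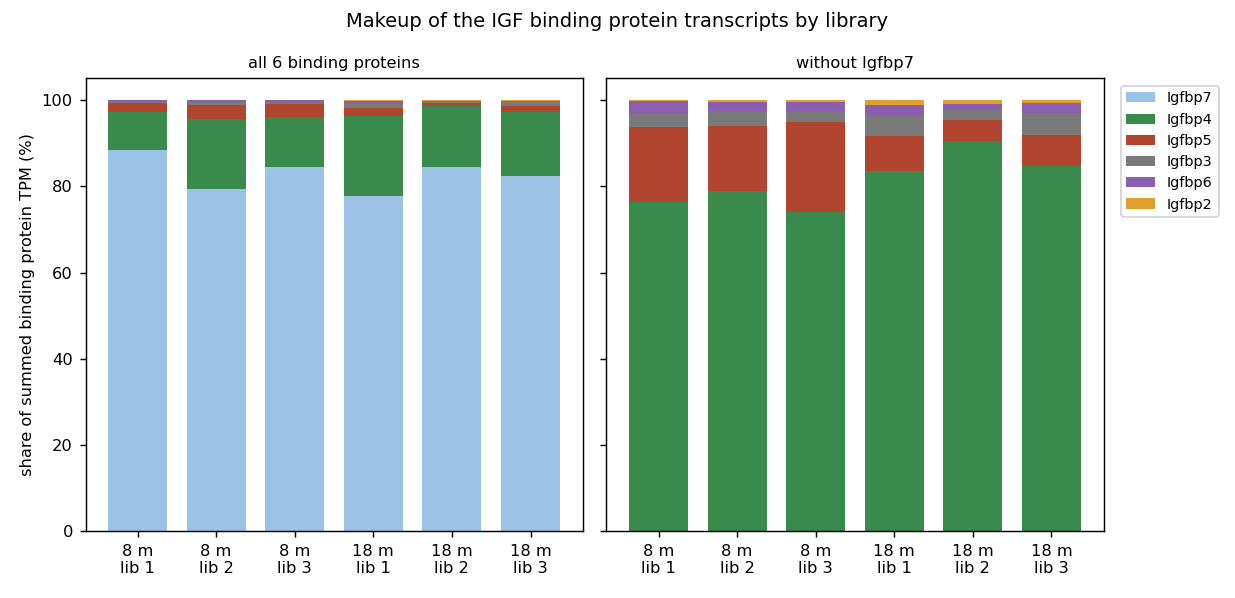
Share of each binding protein (percent, axis from 0 to 100) in the summed TPM of Igfbp2 to Igfbp7 (left) and in the sum without Igfbp7 (right), with 1 stacked bar for each library of mice aged 8 and 18 months. Igfbp7 fills between 77.8 and 88.3% of each bar on the left, and on the right the Igfbp5 segment is between 15.2 and 20.8% at 8 months and between 4.95 and 8.10% at 18 months.

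Of the receptors, Igf1r was higher in each older library. It lies on chromosome 7 (67952827 to 68233668, GRCm38). It was at 16.4, 15.5 and 17.4 TPM in the older libraries and 14.3, 13.2 and 12.9 TPM in the younger. The ages did not overlap, with 15.5 TPM the lowest older value and 14.3 TPM the highest younger one. The mean was 16.4 ± 0.937 TPM (SD, n = 3) against 13.5 ± 0.713 TPM, 1.22-fold higher at 18 months. The log2 difference of 0.27 had an SE of 0.12 and a 95% interval from 0.004 to 0.54 (limma unadjusted p = 0.048, adjusted p = 0.36). The difference was positive in all 19 alternatives, between 0.23 and 0.36, and passed the adjusted threshold in 0 of them. The limma unadjusted p was not under 0.05 in 9 of the 19: with each of the 6 libraries left out (from 0.051 to 0.16), with the replicate block (0.10), after rescaling to the same sum (0.051) and among protein-coding genes (0.056). Arterial markers summed to 1187 to 1287 TPM in the older libraries and 830.6 to 1114 TPM in the younger, and the general capillary sum given above was also higher in each older library. The largest part of the arterial sum was Gja4, at 496 to 658 against 277 to 419 TPM. In 2 of the 10 arterial markers the ages did not overlap, both higher, where 4.48% of all tested genes were. Cxcl12 is in both lists. Whether arterial or general capillary cells had a part in the Igf1r difference was not tested.

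Insr, the insulin receptor gene on chromosome 8 (3122061 to 3279617, GRCm38), was at 4.93, 3.82 and 4.12 TPM in the older libraries and 3.82, 6.24 and 7.81 TPM in the younger. The first younger library was as low as the lowest older library, and the other two lay above all older libraries. The log2 difference of -0.36 had a 95% interval from -0.91 to 0.19 (limma adjusted p = 0.57), and it was -0.60 without the first younger library and -0.17 without the third. The ratio of Igf1r to Insr was 3.32, 4.07 and 4.23 in the older libraries and 3.74, 2.11 and 1.66 in the younger, so the first younger library lay within the older range and the other two below it.

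The ligand Igf1 (chromosome 10, 87858265 to 87937042, GRCm38) was at 0.426, 0.920 and 0.733 TPM in the older libraries and 0.863, 0.623 and 0.819 TPM in the younger, also below the mean required by the test. The ages overlapped. The 12 macrophage and monocyte markers, cells that are a known source of Igf1, summed to 918.8 to 1712 TPM in the older libraries and to 621.2, 681.0 and 1784 TPM in the younger and overlapped as well. Most of this sum was Lyz2, at 614.3 to 1287 TPM in the older libraries and 568.0 to 1542 TPM in the younger. All 10 tested markers of the list had a log2 difference above 0, as had 33.8% of all tested genes. The ages did not overlap in 1 of the 10, Chil3, where 4.48% of all tested genes were higher without overlap.

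Other genes of the pathway were counted from 5 lists of 64 genes set by role, of which 43 were tested. By limma 0 of the 43 passed. At the unadjusted threshold 1 gene was higher and 8 were lower, where 3.45% and 9.99% of all tested genes were. The ages did not overlap in 1 higher and 7 lower, where the shares of all tested genes were 4.48% and 14.2%. Their median log2 difference was -0.15, against -0.079 for all tested genes. Of the 5 tested among other ligands, receptors and binding proteins, Igf2 was the one gene higher at the unadjusted threshold, at 4.21, 5.32 and 3.99 TPM in the older libraries and 2.04, 1.40 and 1.40 TPM in the younger. All 3 libraries aged 18 months were above all those aged 8 months. Its log2 difference was 1.08 with an SE of 0.19 (limma unadjusted p = 0.0005, adjusted p = 0.12), and it passed with library weights (log2 difference 1.01, limma adjusted p = 0.047). The value is uncertain, since 61.9% of the 31-base sequences of Igf2 also occur in the overlapping gene Gm49394. Igf2r, which takes IGF2 to the lysosome, was at 11.6 ± 1.45 TPM in the older libraries and 10.7 ± 2.03 TPM in the younger (SD, n = 3). Esm1, an endothelial proteoglycan with an IGFBP domain, was at 16.5 ± 5.22 and 27.9 ± 10.5 TPM, and the IGFBP-related Kazald1 at 12.0 ± 2.51 and 13.7 ± 1.53 TPM. Both overlapped between the ages.

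Among proteases and inhibitors that act on binding proteins, 0 of 5 tested genes passed either threshold. Adamts1, a matrix protease, ranged from 108.8 to 302.4 TPM in the older libraries and from 231.1 to 296.9 TPM in the younger, the membrane protease Mmp14 from 2.96 to 4.49 and from 4.20 to 5.34 TPM, and Adam12 from 0.711 to 1.49 and from 1.26 to 1.45 TPM. In each of them the ages overlapped.

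Receptor substrates, adapters and brakes had a log2 difference below 0 in 11 of 12 tested genes, where 66.2% of all tested genes did, and 0 passed by limma. Their median was -0.35, against -0.079 for all tested genes. With no filter on low values, which brought 17 of the list into the test, it was -0.17, against -0.047 for all genes. At an unadjusted p under 0.05, 5 of the 12 were lower, where 9.99% of all tested genes were. The ages did not overlap in 3 of the 12, all lower, where the share of all tested genes was 14.2%. Grb14, an adapter that inhibits the insulin receptor, was at 32.6, 26.4 and 31.4 TPM in the older libraries and 44.8, 45.2 and 52.8 TPM in the younger. The ages did not overlap, and the log2 difference was -0.64 with an SE of 0.12 (limma adjusted p = 0.13). Socs2, a brake on growth hormone signalling, was at 28.5 ± 1.73 and 36.6 ± 2.14 TPM (SD, n = 3), and Shc1, an adapter that links receptors to RAS, at 18.0 ± 4.28 and 25.9 ± 2.47 TPM, both without overlap. Their limma adjusted p were 0.21 and 0.26.

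Of 19 tested PI3K, AKT and mTOR genes, 14 had a log2 difference below 0 and 5 above, where 66.2% of all tested genes lay below, and 0 passed by limma. Their median was -0.14, against -0.079 for all tested genes. It was -0.054 after median-of-ratios scaling and -0.055 after quantile normalization, where that of all genes was 0.009 and -0.003. When corrected for GC content and length it was 0.017, against 0.011 for all genes. It was -0.035 without the second older library and -0.093 without the second younger one, where that of all genes was -0.046 and -0.051. Eif4ebp1, the translation repressor that mTOR inactivates, was at 30.7 ± 5.14 TPM in the older libraries and 44.7 ± 6.98 TPM in the younger (SD, n = 3). Pik3r2, a regulatory subunit of PI3K, was at 1.83 ± 0.991 and 4.05 ± 1.29 TPM, and Gsk3b, a kinase that AKT inhibits, at 4.75 ± 0.898 and 6.53 ± 0.173 TPM. The ages did not overlap in these 3 genes, and their limma adjusted p lay between 0.21 and 0.35. Of the 19 genes 4 were lower without overlap, where 14.2% of all tested genes were. Foxo1, a transcription factor that AKT keeps out of the nucleus, was at 24.9 ± 1.76 and 26.4 ± 5.89 TPM, and Foxo4 at 2.88 ± 0.480 and 2.85 ± 0.346 TPM. For both the ages overlapped.

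**Figure D4:**
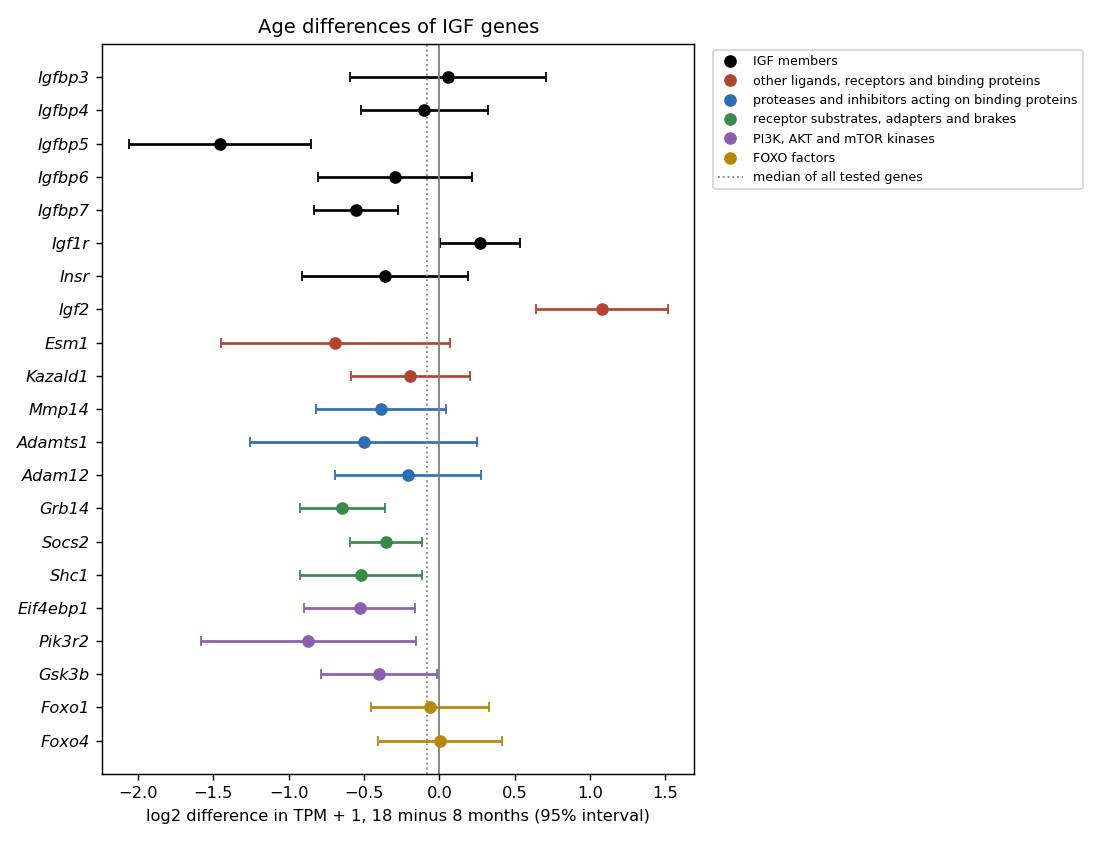
Log2 difference in TPM + 1 between 18 and 8 months (horizontal axis, positive is higher at 18 months) with 95% intervals from limma for the 7 tested members and the pathway genes with the smallest p of each list. The solid grey line marks 0 and the dotted one the median of all tested genes at -0.079. Igfbp5 at -1.46 and Igf2 at 1.08 lie farthest from 0.

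The genes whose values over the 6 libraries were most like those of a member were taken among 9122 genes, by the root mean square difference of their centred log2(TPM + 1) values. For Igfbp7 these were Dnaic1 (0.044), Grina (0.070) and Clu (0.084), where Igfbp7 itself varied by 0.30 around its mean. For Igf1r they were Tagap1 (0.047), Pdia4 (0.055) and Uba3 (0.059), against 0.15 for Igf1r itself. For Insr they were Kcnh1 (0.080), Vps52 (0.087) and Arhgdib (0.10), against 0.33, and for Igfbp3 Chchd6 (0.061), Hps3 (0.10) and Arel1 (0.11), against 0.32. These are descriptions of the 6 libraries, with no test.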

How the data were processed

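RNA of lung endothelial cells sorted by flow cytometry was measured in 6 libraries, 3 each from mice aged 18 and 8 months. Per the labels' protocols, 10 ng of total RNA isolated with a PicoPure kit went into each SMARTer Ultra Low library, read as 100 bp pairs on a HiSeq. The deposited values are TPM per Ensembl gene. Per the submitters' processing notes, kallisto and mm10 were used. Its version, transcript set, gene summing and strandedness are details not given in the sources used here. Columns sum to between 869315 and 876126 TPM. Depth is unknown, so no counting error is given.

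Symbols and positions came from GENCODE M21 (GRCm38), which held 24299 of the 24520 identifiers. Genes entered where their mean reached 1 TPM (12748), and log2(TPM + 1) was tested with limma 3.58.1 in R 4.3.3, with an intensity trend, age as the sole term, 2-sided, and Benjamini-Hochberg adjustment over all tested genes (threshold 0.05). The fit was tested on simulated data. Motifs were searched in the 250 bases before each RefSeq start. Sharing was counted as 31-base sequences of GENCODE transcripts found in those of another gene, on either strand.

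The named genes are the 9 members, the 3 genes of each pathway list with the smallest unadjusted p, and for 4 members the 3 most alike genes whose mean reached 5 TPM. Igf2r, Pecam1, Cdh5, Kdr, Eng, Sftpc, Scgb1a1, Col1a1, Col3a1, Lyve1, Ccl21a, Prox1, Dcn, Lyz2, Chil3, Polr2b, Irs1, Irs2, Akt1, Akt2, Stc1, Stc2 and Pappa are named outside this rule and were chosen after their values were seen, as were the genes listed at 0. Clic5, Ager, Hopx, Inmt, Gja4, Cxcl12, Aplnr, Plvap, Tmem100, Hpgd and Gpihbp1 were also named after their values were seen. The members and lists were chosen with earlier results of these data known. Alternatives were other pseudocounts, filters, scalings and limma settings, the replicate number as a block, a loess correction for GC content and transcript length (span 0.75), protein-coding genes alone and each library left out.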

Additional observations from a re-analysis of the deposited data

How the results depend on the processing

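The 7 tested members kept the sign of their difference under every alternative run for each, except Igfbp3 and Igfbp4. Igfbp3 ranged from -0.11 to 0.32 (log2) over the fits that left out 1 library, and was negative without 18-month library 1 (-0.11) or 3 (-0.036) or 8-month library 1 (-0.079). Igfbp4 ranged from -0.29 to 0.064 over those fits, and was 0.051 when corrected for GC content and length, with or without the replicate block. Kazald1 was 0.037 in both. Foxo1 was 0.033 after median-of-ratios scaling, 0.030 after quantile normalization, 0.098 with the GC and length correction with or without the block, and from -0.23 to 0.083 with 1 library left out. Foxo4 was -0.12 with library weights and from -0.082 to 0.098 with 1 library left out. The causes were not tested.

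Library weights gave 1 member (Igfbp5) and 1 pathway gene (Igf2) past the threshold, where every other alternative gave 0 of each. Over all genes, limma called 1 higher and 2 lower. This became 0 and 0 with no filter, 8 and 8 after median-of-ratios scaling, 9 and 7 after quantile normalization, 2 and 1 without the trend, 34 and 60 with library weights, 15 and 13 among protein-coding genes, and 1 lower with a pseudocount of 0.1. The GC and length correction gave 3 higher and 3 lower. Leaving out 1 library gave 0 to 1 higher and 0 to 1 lower. The replicate block gave 0 and 0, alone or with the GC and length correction. Same-numbered libraries did not deviate together (correlations of -0.012, -0.09 and 0.057, against -0.069 to 0.083 for the other pairs). With 3 libraries of an age this cannot tell if they were paired, which the labels do not state. No sign of a member changed with the block alone.

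With Igfbp7 left out of the sum, the difference between the ages in share was 9.81 percentage points for Igfbp4 (3.62 with it) and -11.0 for Igfbp5 (-1.51 with it), as the sum is smaller. Values in TPM without depth limit what can be said of members near or under 1 TPM.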

Other observations

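Several genes of IGF signalling were listed at 0 in all 6 libraries: Igfbp1, Ins1, Ins2, Irs4 and Foxo3. Igfbp1, a binding protein made mainly in liver, lies 3539 bases from Igfbp3 on chromosome 11. Foxo3 is used by most cell types, so its value says only that the gene is listed at 0. Of the insulin receptor substrates, Irs1 was between 7.52 and 16.6 TPM and Irs2 between 0.0953 and 0.228 TPM. Among the AKT kinases, Akt2 was between 9.92 and 17.9 TPM and Akt1 between 0.176 and 1.45 TPM. Stc2, an inhibitor of the protease PAPP-A, was listed at 0.223, 0.0733 and 0.180 TPM in the older libraries and 0.378, 0.745 and 0.669 TPM in the younger, without overlap and below the mean required by the test. Stc1 was between 7.69 and 13.0 TPM. Pappa, which encodes the protease, was above 0 in 1 library, at 0.0774 TPM.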
